A study of Homo sapiens with 14 samples.

Results

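The 400 regions with the most RelA reads per kb of region were taken from the 14865 regions bound by at least 1 NF-κB subunit in L1236, a Hodgkin lymphoma cell line. RelA, RelB, p50 and p52 were each immunoprecipitated from L1236 cells in 2 replicates, and 6 libraries of input DNA served as the control. The antibodies against RelA, RelB and p50 were the same in both replicates, whereas p52 was precipitated with a different antibody in each. The reads, fold enrichments and summits of a subunit were merged over its replicates, so no value below carries a spread between replicates except where the replicate signal values are given. L1236 stands for Hodgkin lymphoma here as a single line, and no other cells were compared.

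RelA is the transactivating partner of p50 in canonical NF-κB signalling, and RelB is the partner of p52 in the non-canonical branch. Both kinds of dimer bind κB sites, G-rich to C-rich decamers in promoters and enhancers, and among their best known targets are genes that feed back on the pathway, such as *NFKBIA*, which encodes the inhibitor IκBα. A dense pile of reads is not by itself a bound site. Repeats that a genome holds in many copies but an assembly holds in few collect reads from every copy, in input DNA as well as after precipitation.

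The members were chosen by their RelA reads per kb, so their RelA values describe them and were not tested. RelA density ran from 44.9 to 1304 reads per kb over the members, with a median of 89.3, whereas the median over all regions was 15.6. The members covered 2.86% of the bases of all regions and held 60865 of the 315151 RelA reads, or 19.3%. The same regions held 14.3% of the RelB reads, 4.02% of the p50 reads and 4.95% of the p52 reads.

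The last region taken, at chr11:118196197-118197398 (hg18, as all region coordinates here), had 54 RelA reads on 1202 bp, or 44.93 per kb with an exact Poisson 95% interval of 33.7 to 58.6. The first one left out, at chr2:70196112-70197671, had 70 reads on 1560 bp, or 44.87 per kb with an interval of 35.0 to 56.7. These intervals cover counting error only. The lower bound lay above the density of the last region taken in 270 of the 400 members, so membership of the other 130 was not settled by the number of reads. It did so in 174 of the high-copy but 19 of the 57 close-summit members, the classes described next, and 833 regions outside the set had an upper bound over that density.

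The members were separated by the local background that the peak caller used, which is the pileup at the summit divided by the fold enrichment over input. Of the 400 members, 194 (48.5%, Wilson 95% interval 43.6 to 53.4%) had a background more than 2.5 times a called subunit's usual one (its median over all its calls, and the median over the subunits called in the member), against 1.51% of all regions. They are called high-copy background here after that measure; the number of copies was not measured. A further 57 members (14.2%, 11.2 to 18.0%) were under that background, were called for RelA and had their RelA summit within 250 bp of a p50, p52 or RelB summit. The other 149 met neither description. On the same scale the background ran without a gap at 2.5, from 0.743 to 16.3 times the median over the members. It rests only on the subunits called in a member. In the high-copy class the median background was 10.1 fragments for RelB, against 2.89 over all RelB calls. For RelA it was 18.5, against 3.25. RelB thus ran lower on this scale, so the limit may be stricter for members called for RelB alone, which was not tested.

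**Figure D1:**
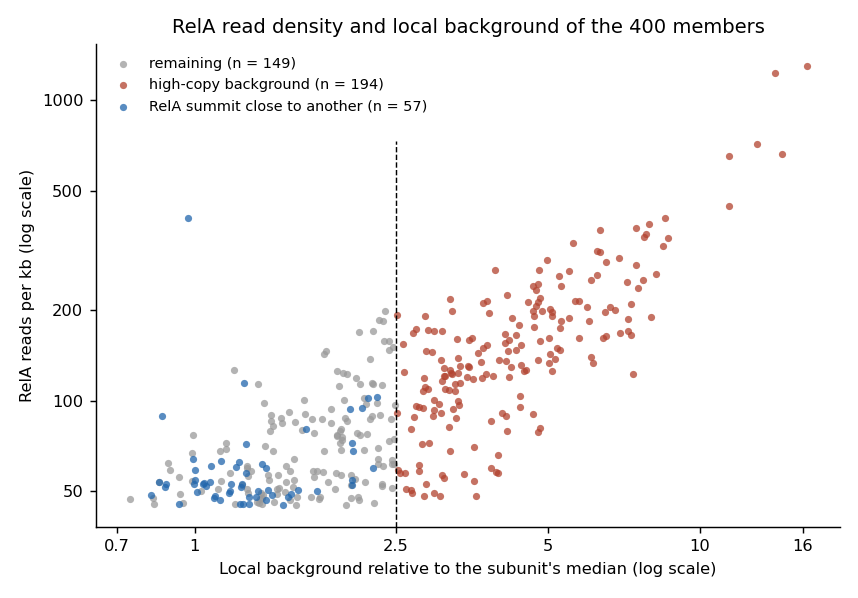
RelA reads per kb against the local background relative to the subunit's median for each of the 400 members, both on log scales, with the dashed line at 2.5. The 194 high-copy members climb to 1304 reads per kb with rising background, while a single close-summit member, at 407 reads per kb, stands far above the others with a background of 0.969.

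Of the 15 close-summit members within 1 kb of a transcription start site (TSS), 4 could be given a gene name. The upstream sequences of these genes are shown because their RelA regions lie on the start of the gene. These regions are wider than the windows shown, and whether the RelA summits lie in the windows was not examined. Each is the 250 bases before the RefSeq start (GRCh38.p14), 5′ to 3′ on the strand of the gene, and was matched by symbol, since the regions are on another build. Capitals mark matches to the κB decamer consensus, searched on both strands. They lie upstream of *NFKBIA* at chr14:35404750-35404999 on the minus strand, *BIRC3* at chr11:102317234-102317483, *ABCF1* at chr6:30571192-30571441 and *JUNB* at chr19:12791236-12791485, the last 3 on the plus strand.
NFKBIA: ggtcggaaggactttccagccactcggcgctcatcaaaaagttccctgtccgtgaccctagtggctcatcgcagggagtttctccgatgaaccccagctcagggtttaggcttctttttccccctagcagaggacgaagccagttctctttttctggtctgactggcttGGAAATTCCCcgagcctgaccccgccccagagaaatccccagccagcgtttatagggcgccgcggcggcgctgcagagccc
BIRC3: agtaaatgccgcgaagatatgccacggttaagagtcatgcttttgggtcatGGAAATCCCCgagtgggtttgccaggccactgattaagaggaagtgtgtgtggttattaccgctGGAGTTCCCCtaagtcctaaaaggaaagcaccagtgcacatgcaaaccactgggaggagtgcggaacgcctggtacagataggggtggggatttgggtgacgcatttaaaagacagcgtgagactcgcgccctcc
ABCF1: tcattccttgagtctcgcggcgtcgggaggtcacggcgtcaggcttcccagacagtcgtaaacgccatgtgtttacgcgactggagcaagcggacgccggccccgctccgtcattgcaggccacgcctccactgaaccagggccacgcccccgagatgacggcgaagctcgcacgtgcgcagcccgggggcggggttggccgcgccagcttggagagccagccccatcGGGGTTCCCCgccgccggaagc
JUNB: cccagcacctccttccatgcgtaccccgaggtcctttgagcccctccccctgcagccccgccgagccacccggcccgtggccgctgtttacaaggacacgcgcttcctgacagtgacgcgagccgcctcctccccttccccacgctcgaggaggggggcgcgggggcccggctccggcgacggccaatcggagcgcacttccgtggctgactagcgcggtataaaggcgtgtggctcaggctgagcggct

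The match upstream of *NFKBIA* starts at position -81, those upstream of *BIRC3* at -199 and -135, and the match upstream of *ABCF1* at -22, where the consensus is met on both strands. No match was found in the window of *JUNB*, which says only that these letters are not in these bases. The same search found a match in 9.96% of 35116 RefSeq promoter windows, so a match is a description of the letters and not of a bound site.

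The 4 subunits had nearly equal read densities in the high-copy members and unequal ones in the close-summit members. In the high-copy members the median density was 146 reads per kb for RelA, 137 for RelB, 107 for p50 and 148 for p52. In the close-summit members it was 52.7 for RelA, 85.0 for RelB, 187 for p50 and 236 for p52. In the 149 remaining members it was 63.9, 75.2, 66.5 and 85.4 reads per kb in that order, between both classes for RelA and under both for the other 3 subunits. Since RelA reads chose the members, every ratio to RelA is a description. The counts are those deposited and were not scaled here. The authors reduced the libraries to an equal number of reads, and whether the counts were taken before or after that is not stated, so how far equal densities mean equal coverage is not known.

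**Figure D2:**
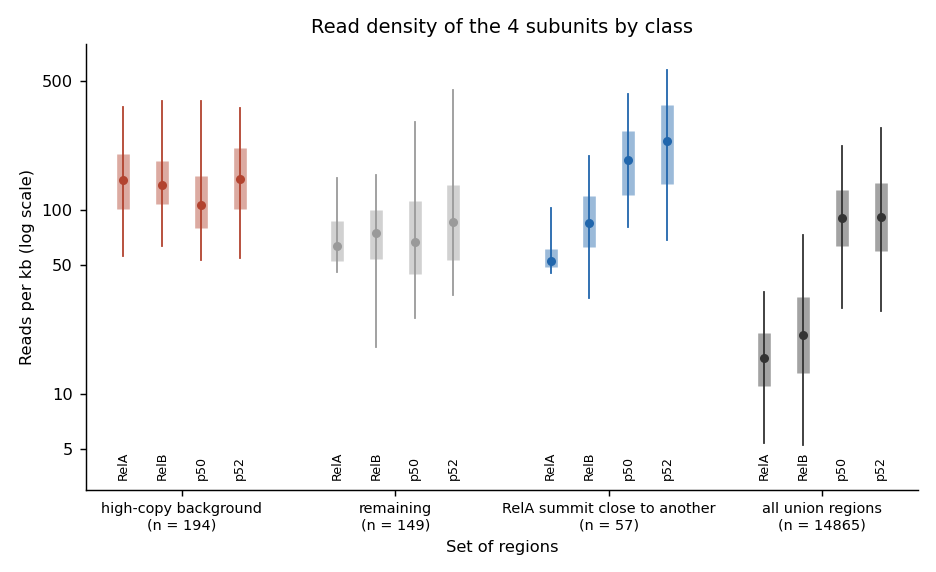
Reads per kb of RelA, RelB, p50 and p52 on a log scale in the 3 classes of members and in all union regions. Points are medians, thick bars the middle 50% and thin bars the 5th to 95th percentiles over regions, which are not replicates. The 4 medians of the high-copy members lie between 107 and 148, while those of the close-summit members climb from 52.7 for RelA to 236 for p52.

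Within single members the median ratio of p50 to RelA reads was 0.730 in the high-copy class, 0.738 in the remaining class and 3.28 in the close-summit class, against 5.86 over all regions. The p52 to RelA ratio was 0.969, 1.05 and 4.44 in the same order, against 6.17 over all regions. The RelB to RelA ratio was closer between the classes, at 0.976, 0.912 and 1.58, against 1.36. RelA thus had more reads than p50 in 148 of the 194 high-copy members but in 3 of the 57 close-summit members. The lowest of the 4 densities was at least 50% of the highest in 134 high-copy members (69.1%, 62.3 to 75.2%), 57 remaining members (38.3%, 30.8 to 46.3%) and 7 close-summit members (12.3%, 6.08 to 23.2%), against 1.47% of all regions.

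p50 and p52 were called in a smaller share of the high-copy than of the close-summit members. The close-summit class requires a RelA call and a nearby summit of another subunit, so its calls are in part fixed by its definition, and those of all 4 subunits most directly. RelB was called in 181 of the 194 high-copy members (93.3%) and in 54 of the 57 close-summit members (94.7%), while 26.8% of all regions carried a RelB call. p50 was called in 47 high-copy members (24.2%, 18.7 to 30.7%) and 50 close-summit members (87.7%, 76.8 to 93.9%), against 73.8% of all regions. p52 was called in 63 (32.5%, 26.3 to 39.3%) and 50 (87.7%, 76.8 to 93.9%) of them, against 73.3%. All 4 subunits were called in 27 high-copy members (13.9%, 9.74 to 19.5%), 45 close-summit members (78.9%, 66.7 to 87.5%) and 2 remaining members, against 2.35% of all regions.

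RelA itself was called in 170 of the 400 members, against 3.31% of all regions. This share uses the reads that chose the members, and it left 230 of the densest RelA regions without a RelA call. RelB as the only call was the most frequent pattern, with 77 high-copy and 95 remaining members, so 172 of the 570 regions of that pattern (3.83% of all regions) were members. RelA as the only call was found in 17 members, 6 high-copy and 11 remaining, of 26 such regions in all (0.175%).

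The 10 densest high-copy members had between 371 and 1304 RelA reads per kb. The densest, at chr6:58884033-58887415, had 4410 RelA, 5543 RelB, 3246 p50 and 4821 p52 reads on 3383 bp. All 4 subunits were called there, and the RelA pileup of 253 fragments corresponded to a fold enrichment of 4.94 over a background of 51.2 fragments. At chr1:121185486-121187111 there were 2007 RelA, 3169 RelB, 1502 p50 and 2423 p52 reads, with a RelA fold enrichment of 4.85. The member at chr7:61606205-61607158 had 622 RelA, 1067 RelB, 503 p50 and 841 p52 reads, and no gene lay within 1 Mb of it. In these 3 members RelB had the most reads and p50 the fewest.

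The other 7 of these 10 had no other member within 50 kb. At chr1:154452704-154453431, inside a gene, 521 RelA, 610 RelB, 578 p50 and 420 p52 reads fell on 728 bp. The members at chr1:91625223-91625884, chr11:84872498-84873052, chr17:30502074-30502633, chr20:26136497-26138665, chr6:119600104-119600544 and chr17:28173379-28174162 had 371 to 663 RelA reads per kb. In 6 of the 7 isolated members p50 had more reads than RelA, the exception being chr6:119600104-119600544 with 166 RelA and 112 p50 reads. Their RelA fold enrichments lay between 2.95 and 5.86.

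Over the high-copy class, isolated members and those in chains of 3 or more differed in the same way. Members in pairs were left out of this comparison. The 39 high-copy members with no other member within 50 kb had a median RelA density of 191 reads per kb, a p50 to RelA ratio of 1.06 and a width of 662 bp. The 132 in chains of 3 or more members had 147 reads per kb, a ratio of 0.685 and a width of 1041 bp. p50 was called in 21 of the 39 isolated members and in 17 of the 132 crowded ones. None of the 132 lay inside a gene, whereas 15 of the 39 did.

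Chains of 3 or more members with at most 50 kb between neighbours numbered 25, on 15 chromosomes, and held 207 members: 132 high-copy, 72 remaining and 3 close-summit. Within these chains lay 226 regions of the union, so nearly every NF-κB region there belonged to the densest 400. A chain begins and ends with a member, so this share is in part set by the definition. The longest chain by count was 19 members on 51.3 kb at chr10:41675961-41727251, of which 18 were high-copy, 19 were called for RelB and 1 for p50. Chains of 18 members stood at chrY:11913043-11950247, chr16:44943251-44993211 and chr2:91632583-91688148, and 16 members stood at chr4:48787931-48851906. In the last chain RelB was called in 16 members and RelA in none, although the median density there was 104 RelA reads per kb.

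Smaller chains of 8 to 14 members lay at chr16:33794999-33930554, chr2:132713560-132752722, chr4:49329156-49354966, chrY:10628934-10648046, chr7:61604602-61659444 and chr11:51423698-51448099. The other 14 held 3 to 6 members each and were on chromosomes 1, 2, 6, 8, 9, 10, 12, 17, 18, X and Y. The median p50 to RelA ratio lay between 0.486 and 0.779 in 24 of the 25 chains and was 1.08 in the chain at chrY:57236540-57272453. The median RelB to RelA ratio varied more, from 0.641 at chrY:10628934-10648046 to 1.60 at chr17:22171101-22184400.

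Chromosome 2 held 55 members, chromosome Y 41, chromosome 16 37, chromosome 4 32 and chromosome 10 31. On chromosome Y these were 41 of 51 NF-κB regions (80.4%), whereas on the other chromosomes members made up at most 6.45% of the regions. Close-summit members were spread over 17 chromosomes, with 10 on chromosome 2, 7 on chromosome 1 and none on chromosomes 10 and 16.

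**Figure D3:**
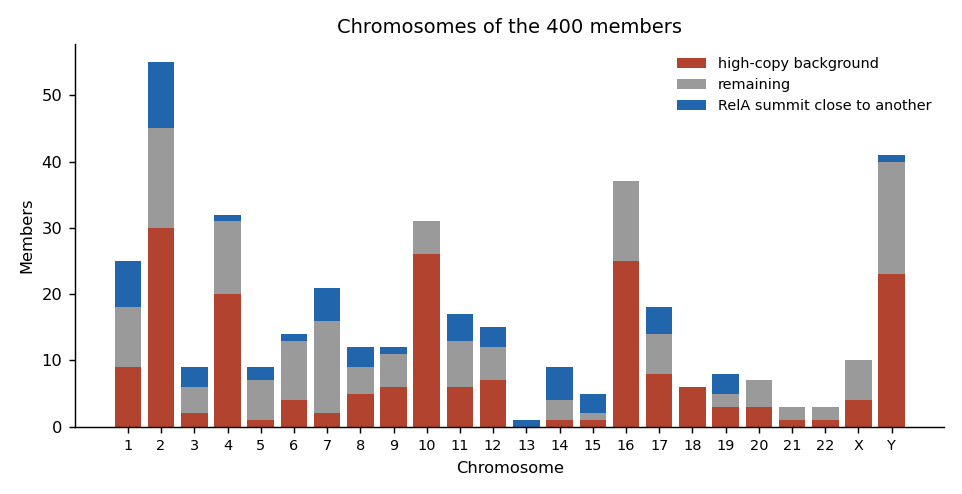
Number of members on each chromosome, stacked by class. Chromosomes 2, Y, 16, 4 and 10 hold the tallest bars, with 31 to 55 members each, and these are made mostly of high-copy and remaining members.

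Crowding within 50 kb set the classes apart when counted among the members, and not when counted over all regions. Another member lay within 50 kb of 155 high-copy members (79.9%, 73.7 to 84.9%), 87 remaining members (58.4%, 50.4 to 66.0%) and 5 close-summit members (8.77%, 3.81 to 18.9%). Any other NF-κB region lay within 50 kb of 86.6% (81.1 to 90.7%) of the high-copy and 89.5% (78.9 to 95.1%) of the close-summit members, against 70.8% of all regions. Regions of a chain share a locus and are not independent, and these intervals do not account for that.

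The median distance between summits was alike in the classes. Where RelA and another subunit were called, the median distance from the RelA summit to the closest other summit was 10 bp in 91 high-copy members, 9 bp in the 57 close-summit members and 11 bp in 313 RelA-called regions outside the 400. Summits lay within 50 bp of each other in 62 of the 91 high-copy members (68.1%, 58.0 to 76.8%) and 51 of the 57 close-summit members (89.5%, 78.9 to 95.1%). The limit of 250 bp was part of the definition of the close-summit class, which removes its longer distances, so these shares are not compared further.

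**Figure D4:**
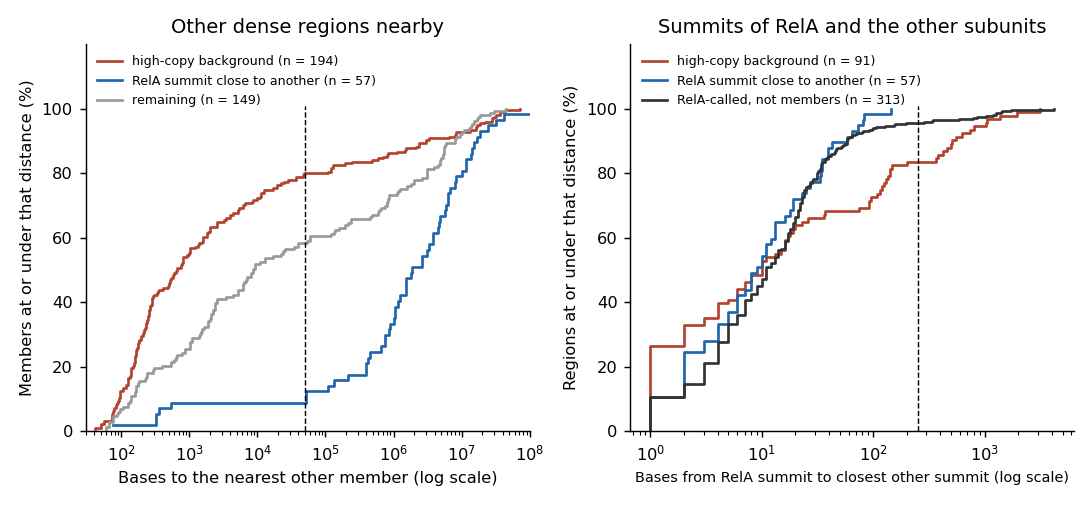
Left, cumulative percentage of members by the distance in bases to the nearest other member (log scale), with the dashed line at 50 kb. Right, cumulative percentage of RelA-called regions by the distance from the RelA summit to the closest other summit (log scale, 0 drawn at 1), with the dashed line at 250 bp. The curves of the classes lie far apart on the left, at 79.9% against 8.77% at the line, and start close together on the right, where the medians are 10 and 9 bp.

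Few high-copy members lay near genes. A TSS was within 1 kb of 6 of them (3.09%, 1.43 to 6.58%), of 15 remaining members (10.1%, 6.20 to 15.9%) and of 15 close-summit members (26.3%, 16.6 to 39.0%), against 20.1% of all regions. No TSS was found within 100 kb of 135 high-copy (69.6%, 62.8 to 75.6%) and 8 close-summit members (14.0%, 7.29 to 25.3%), against 18.5% of all regions. Of the close-summit members 57.9% (44.98 to 69.8%) lay inside a gene, close to the 58.0% of all regions, whereas 10.3% (6.77 to 15.4%) of the high-copy members did.

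The remaining 149 members were of 3 kinds by their calls. RelB alone was called in 95 of them, so their background came from RelB only. In these 95 the median background was 1.95 times the median and the p50 to RelA ratio 0.655. Of these, 69 sat in chains of 3 or more members, and apart from the 4 at chrX:61731711-61798403 each of these chains held high-copy members. At least p50 or p52 was called in 40, with a p50 to RelA ratio of 3.44 and median fold enrichments of 20.05 for p50 and 22.3 for p52. Of these, 28 lay inside a gene and 37 had no other member within 50 kb. The third kind was 14 members with a RelA call and neither p50 nor p52.

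Among these 14, the 11 members with RelA as their only call had 26 to 61 RelA reads each. The most reads were at chr4:80493181-80493919, with 61 RelA, 23 RelB, 33 p50 and 39 p52 reads and a RelA fold enrichment of 4.73. The highest RelA fold enrichment among the 11, 6.34, was at chr2:238014139-238014833, with 33 RelA, 13 RelB, 10 p50 and 24 p52 reads. These members were few and shallow, and in 7 of them p50 had more reads than RelA without being called.

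Among called members the median RelA fold enrichment was 3.44 in the high-copy class (n = 97) and 7.70 in the close-summit class (n = 57), while the median RelA pileup was 63.0 and 31.0 fragments. These share the RelA reads with the choice of members. Since the classes were split by pileup divided by fold enrichment, a low fold enrichment in the high-copy class also follows in part from the split, and the values of all 4 subunits are a description. For p50, the median fold enrichment was 4.404 in 47 high-copy and 28.2 in 50 close-summit members, against 16.8 over all p50 calls. For p52 it was 3.85 in 63 and 40.5 in 50 of them, against 17.2. For RelB it was 5.20 in 181 and 18.1 in 54, against 9.08. Within the close-summit class the fold enrichment of the other subunit exceeded that of RelA in 50 of 50 members called for p52, 49 of 50 called for p50 and 46 of 54 called for RelB.

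The RelA signal values, a score for each replicate, were available for called members. The larger was 1.36 times the smaller at the median in the 97 high-copy members and 1.93 times in the 57 close-summit members, and it was 2.04 times in the 322 RelA-called regions outside the 400. The median irreproducible discovery rate (IDR), which is low for peaks that recur between replicates, was 7.84e-05 in the high-copy and 0.000582 in the close-summit members. By the ratio of signal values the replicates of the high-copy class lay closer together at the median, and the median IDR of that class was lower. Which value belongs to which replicate is not given.

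The close-summit class began with a pair of neighbouring regions. The denser of them, at chr8:72918261-72919462, lay on a TSS that the table assigns to ENSG00000178860, and had 489 RelA, 489 RelB, 544 p50 and 539 p52 reads on 1202 bp. Its RelA density of 407 reads per kb (372 to 445) ranked 8 among the members, and its RelA fold enrichment of 47.4 was the highest of all 492 RelA calls. The replicate signal values were 1978 and 1402. The fold enrichment of RelB was 46.2, that of p50 65.01 and that of p52 57.1, so the 4 subunits were nearly even here on a background of 0.969 times the median. The second region, 326 bp away at chr8:72916903-72917934, had 92 RelA, 88 RelB, 111 p50 and 121 p52 reads, with fold enrichments of 19.6, 19.98, 23.1 and 22.6.

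The second densest of the class lay at chr2:8738558-8740808, inside ENSG00000115738 as assigned and 2132 bp from the TSS. It had 257 RelA, 225 RelB, 385 p50 and 338 p52 reads, with fold enrichments of 25.4, 21.7, 26.5 and 27.8. The replicate signal values of RelA were 765 and 650. These 3 regions had nearly even reads of the 4 subunits but backgrounds of at most 1.25 times the median. Even reads of the 4 subunits were thus found on low background as well.

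The rest of the 10 densest close-summit members apart from the second chromosome 8 region had 71.7 to 103 RelA reads per kb. At chr11:51432072-51432654, chr13:26931540-26932208, chrY:10644737-10645649, chr8:82916858-82917518 and chr2:132752066-132752722 only RelA and RelB were called, and the background was 2.30, 2.20, 2.14, 2.03 and 1.66 times the median. Of these 5, 3 belonged to chains of 8, 10 and 13 members, and the median p50 to RelA ratio of the 5 was 0.809. Of the 57 close-summit members 9 had a background over 2, so the class was not free of regions that resembled the high-copy members in these measures. At chr2:99163367-99164482 the 4 subunits were called on a background of 1.26, with 80 RelA, 91 RelB, 141 p50 and 102 p52 reads.

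Genes could be named for 27 of the 206 gene identifiers assigned to members, since symbols were taken only from tables that pair them. Of 97 genes of NF-κB signalling, cytokines, survival, surface receptors and transcription factors, 42 had an identifier. To these, 233 of all regions and 22 of the RelA-called regions were assigned, and 5 members, of which 3 were close-summit, 2 remaining and none high-copy. That was 1.25% of the members, near the 1.57% of all regions and under the 4.47% of the RelA-called regions. Regions at listed genes without an identifier could not be counted, so these counts are lower bounds. The densest close-summit members, given above by identifier only, had no name, so whether their genes are listed was not checked. Named cytokine and chemokine genes had 37 regions (0.249% of all) and survival genes 24 (0.161%), and no member was among them, which at these shares is no result about the members.

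*NFKBIA*, whose product IκBα holds NF-κB in the cytoplasm, had 190 RelA, 620 RelB, 1152 p50 and 1626 p52 reads at chr14:34941193-34944892, over its TSS. The RelA density was 51.4 reads per kb (44.3 to 59.2), and the fold enrichment was 19.9 for RelA, 56.0 for RelB, 88.7 for p50 and 100.98 for p52. The RelA summit lay 34 bp from that of RelB and 984 bp from that of p50 in this region of 3700 bp. The replicate signal values of RelA were 399 and 200.

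*BIRC3*, which encodes the ubiquitin ligase cIAP2 of the TNF receptor complex, had 78 RelA, 182 RelB, 256 p50 and 504 p52 reads at chr11:101692401-101693877, also over the TSS. The RelA fold enrichment was 15.5, the replicate signal values were 329 and 193, and the RelA summit lay 2 bp from the p52 summit. *JUNB*, a subunit of the AP-1 transcription factor, had 155 RelA, 393 RelB, 875 p50 and 891 p52 reads at chr19:12762930-12766215, over the TSS. There the RelA fold enrichment was 14.3 and the signal values were 163 and 277. In all 3 regions RelA had the fewest and p52 the most reads.

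The 2 remaining members at genes of these lists had no RelA call. Near *CD80*, which encodes a costimulatory ligand for CD28, 53 RelA, 76 RelB, 309 p50 and 595 p52 reads fell at chr3:120763804-120764788, at a distance of -2633 bp from the TSS as the table signs it. Inside *TRAF1*, an adaptor of TNF receptors, 32 RelA, 23 RelB, 114 p50 and 118 p52 reads fell on 651 bp at chr9:122723650-122724300.

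The other named close-summit members were assigned to *ABCF1*, *GPR132*, *BHLHE40*, AC009236.4, *ASB2* and *JAKMIP1*. *GPR132*, a G protein-coupled receptor gene, had 111 RelA, 332 RelB, 650 p50 and 1175 p52 reads at chr14:104606863-104608637, at -4064 bp from its TSS. *BHLHE40*, a helix-loop-helix repressor gene, had 54 RelA, 165 RelB, 237 p50 and 413 p52 reads at chr3:5023038-5023938. *ABCF1*, an ABC family gene with a role in translation, differed in that p50 led, with 165 p50 reads against 49 RelA, 45 RelB and 65 p52 reads at chr6:30646800-30647478 over the TSS. Its background was 2.05 times the median and p52 was not called.

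**Figure D5:**
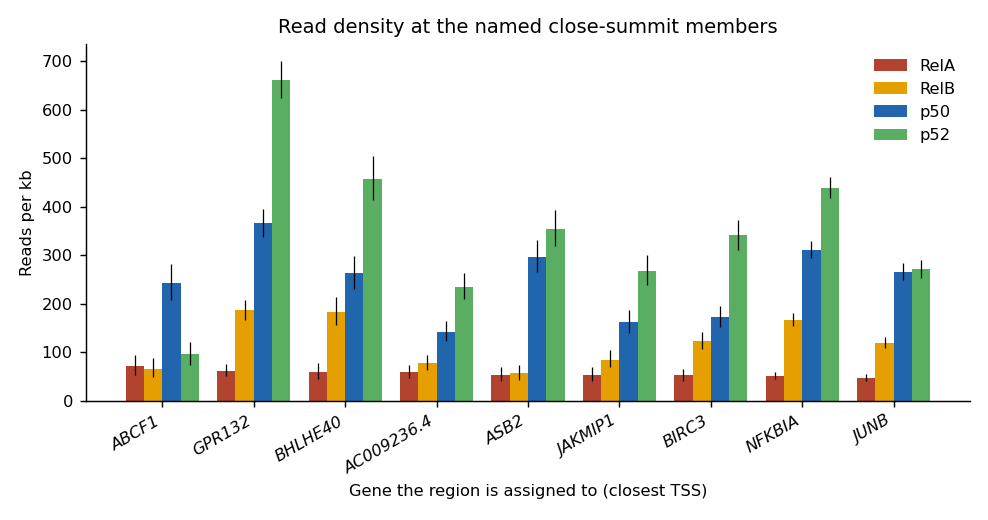
Reads per kb of RelA, RelB, p50 and p52 at the 9 close-summit members whose gene could be named, from the densest for RelA on the left. Error bars are exact Poisson 95% intervals of the merged counts and cover counting error only. p52 is the tallest bar in 8 of the 9, *ABCF1* being the exception with p50 at 243 reads per kb.

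The 57 close-summit members were closer in these measures to the 322 RelA-called regions outside the 400 than to the high-copy members. Background and calls of all 4 subunits are in part set by how these sets were chosen. All 57 and all 322 carry a RelA call, and the limit of 2.5 removed higher backgrounds from the close-summit class. Those 322 regions had a median background of 0.966 times the median, a p50 to RelA ratio of 4.75, and calls of all 4 subunits in 85.4% (81.1 to 88.8%), against 1.24 times, 3.28 and 78.9% in the close-summit members. Their share within 1 kb of a TSS was 31.7% (26.8 to 36.9%), which overlapped the interval of the close-summit members. Only 1 of the 322 had a background over 2.5 times the median, although 98 of all 492 RelA calls did, so 97 of these 98 were members. By RelA density, the densest 100 members held 92 high-copy and 1 close-summit member, and the last 100 held 10 and 36. Since this density chose the members, their order by it is a description.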

How the data were processed

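The study's authors mapped the ChIP-seq reads with Bowtie to hg18, kept uniquely mapped reads, called peaks with MACS on merged replicates against merged input, and joined them into union regions. The deposited read counts are whole reads per region, merged over replicates, and whether they precede the authors' reduction of the libraries to equal depth is not stated. The deposited fold enrichment is a ratio of ChIP to input at the summit, and the deposited pileup is a coverage signal there. The deposited FDR is a q-value, the deposited IDR is a fraction, and the deposited signal values are a score for each of 2 replicates. Groups follow the sample labels.

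From these, RelA counts per kb of width were ranked (ties by region number) and the 400 densest regions taken. Pileup divided by fold enrichment was scaled to each subunit's median over its calls. Shares carry Wilson and counts exact Poisson 95% intervals (Python 3.11, scipy). Regions are not replicates, so no test was run. The steps were tested on simulated data. The regions held 315151 RelA, 470788 RelB, 1654137 p50 and 1810792 p52 reads, and few reads per region limit the precision. These are reads inside bound regions and not the sequencing depth of the libraries. The members, classes and gene lists were chosen with earlier results of these data known. Named regions were the 10 densest of the high-copy and close-summit classes, those at the rank limit, chains of at least 3 members, and close-summit members at listed genes. The isolated, RelA-only, CD80 and TRAF1 members and the other named genes were chosen after their values were seen. Closest genes and TSS within 1 Mb are the authors'. Gene names came from the study's tables and primer list, which named 921 of 8450 identifiers. Promoter sequences are from RefSeq (GRCh38.p14), since no hg18 genome was used here.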

Additional observations from a re-analysis of the deposited data

How the results depend on the processing

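No paired analysis was possible because the read counts, fold enrichments and summits are merged over replicates and the signal values are not tied to numbered replicates. No replicate was left out, for the same reason.

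Of 236 values recomputed under other settings, 183 moved by less than 1.5 times or stayed within the interval of the share, and 53 did not. The 183 include values that could not move. These are all values under the IDR limit of 0.01, and high-copy values under settings that act only on the close-summit class. The count is therefore no measure of stability. With a background factor of 5, high-copy members made up 15.25% and close-summit members 21.75%. All 4 subunits were then called in 34.4% of the high-copy and 57.5% of the close-summit members, and the close-summit class had a p50 to RelA ratio of 2.00 and another member within 50 kb in 28.7%. With a factor of 2 the high-copy share was 62.75%. A split by even reads and crowding gave 40.5% and 21.75%, with 100% of the high-copy members near another member and near another region by construction and all 4 calls in 9.26%. The close-summit class then had a p50 to RelA ratio of 2.00, another region within 50 kb in 74.7%, a TSS within 1 kb in 16.1% and all 4 calls in 63.2%.

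The 200 densest regions, all among the 400, held 79.5% high-copy and 3.00% close-summit members and 0 at listed genes. Here and below, listed genes are the 42 that had an identifier, so these counts are lower bounds. Another member lay within 50 kb of 72.3% of the high-copy members. The 6 close-summit regions left had a p50 to RelA ratio of 1.06, a RelB to RelA ratio of 0.779, another member nearby in 33.3%, all 4 calls in 33.3% and a ratio of signal values of 1.24. The 800 densest held 26.0% and 21.5%, with 16 at listed genes. Ranking by RelA reads without width kept 215 of the 400 and gave 37.75% high-copy, with 19 at listed genes. In its close-summit class, another member was near 19.1%, a TSS within 1 kb of 47.1%, and all 4 calls in 97.1%. Ranking called regions by RelA pileup kept 166 and gave 24.5% high-copy and 70.0% close-summit, with 19 at listed genes, another member near 61.2% of the high-copy class, and all 4 calls in 27.6% and 91.1%. Regions of at least 500 bp gave 42.25% and 20%, with another member near 72.8% of the high-copy class.

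Within 10 kb, another member was near 72.2% and another region near 78.9% of the high-copy members, and another region near 63.2% of the close-summit members. A TSS within 5 kb was found for 7.73% and 42.1% of the classes. A limit of 0.01 on the IDR changed nothing, since no deposited IDR exceeds it, so a limit of 0.001 was added after seeing the data. It left 9.75% close-summit members by the RelA IDR, and all 4 calls in 4.64% of the high-copy and 47.4% of the close-summit members by the IDR of every subunit. Leaving out close-summit members with a background over 2, also added later, moved no value past these limits. The close-summit class lay above the high-copy class in p50 to RelA ratio, TSS share and all 4 calls under every setting it was recomputed for. All 4 calls are in part fixed by the class definition. The split by even reads also bounds the p50 to RelA ratio of its high-copy class. With the 200 densest regions the order rests on 6 close-summit regions. The remaining class was not recomputed.

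The number of reads limits single regions: 130 members had a counting interval that reached the density of the last region taken.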
